A study of Mus musculus with 9 samples.

Results

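Among the transcripts that appear in the testis as the first germ cells reach meiosis are many that still carry only a RIKEN clone number as their gene symbol, ending in Rik. Here 56 such genes were examined, of 741 Rik genes and 19935 genes with a value in all. A gene was included when its symbol ended in Rik, its array rows carried no other symbol, and its mean at 16 days was at least 1 on the log2 scale (2-fold) above its mean at 8 days. The choice therefore rests on the 16-day and 8-day values, which are given below as a description and are not tested.

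The values come from 9 Affymetrix arrays of biotin-labelled total RNA from whole testis of Swiss albino mice, an inbred line per the labels, without treatment, at 8, 16 and 24 days, with 3 arrays of each age. The series' text calls the 3 arrays of an age biological replicates and names 24 against 16 days among its comparisons. Replicates 1 and 2 carry those numbers in their titles, and the array without a number is called replicate 3. Each deposited value is a log2 value relative to the median of its own row over the 9 arrays. Differences between ages can be read from such values, but levels cannot, and the level of a gene cannot be set against that of another. A gene that climbs with age has its middle array, usually a 16-day array, at 0.00 by construction. In whole testis, more cells of a type and more RNA per cell cannot be told apart.

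In mice, spermatogonia divide by mitosis, their descendants enter meiosis as spermatocytes, and the haploid spermatids that follow build the acrosome and the flagellum. The first wave of this sequence is nearly synchronous, so the most advanced germ cells in a young testis mark its age. RIKEN clone numbers begin with a code for the cDNA library from which the clone was picked, and the codes 1700, 4921 and 4930 to 4933 stand for adult testis libraries. Genes that kept such a symbol include protein-coding genes, long non-coding RNAs (lncRNAs) and pseudogenes.

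The tissue and its stages were checked with marker lists. Relative to each gene's own median, the list of 12 spermatid genes had a median difference of 3.92 between 24 and 16 days and of 0.01 between 16 and 8 days, and all 12 passed limma's test of the later interval. The list of 15 pachytene spermatocyte genes had medians of 0.85 for 24 minus 16 days and 1.46 for 16 minus 8 days. In it 11 rose in the later interval and 12 in the earlier one, and 0 fell in either. The list was mixed in its course. Hspa1l and Spag6 had later differences of 3.25 and 2.82 after earlier ones of -0.40 and 0.18, while Sycp1 and Sycp3 had later differences of -0.23 and 0.03. Of 10 spermatogonial genes, 9 fell in the later interval and 8 in the earlier one, with medians of -0.80 and -0.69. Of 9 measured Sertoli cell genes 5 fell in each interval, with medians of -0.52 and -0.74. Of 5 measured Leydig cell genes, 1 rose and 1 fell in the later interval and all 5 fell in the earlier one, with medians of 0.48 and -2.18, and their median was -1.35 in replicate 3 of 24 days and 0.00 in the other 24-day arrays. Between 16 and 8 days 10.4% of all genes rose and 14.3% fell. The part of these shifts in the values of the Rik genes was not tested. The lists for macrophages, for epididymis and for liver and muscle had median differences between -0.19 and 0.05 in both intervals. Over 1027 olfactory receptor genes a pair of arrays, the first replicate at 8 days and the second at 16 days, had a median of 0.17, while the others lay between -0.05 and 0.03. The part of this shift in the values below was not tested, and counts are also given without these 2 arrays.

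The symbols of 53 of the 56 genes began with a testis library code, against 256 of the 685 Rik genes below the threshold (94.6% and 37.4%). Among the 685 were 98 genes with a later difference of at least 1, and 88 of these 98 also had such a code. The code 1700 alone accounted for 29 of the 56, and 22.5% of all 129 Rik genes with that code were included. The 3 others were 1110032A03Rik, 2700049A03Rik and 9530077C05Rik. RefSeq (GRCm38.p6) held 55 of the 56 by gene ID, and all 55 had the same Rik symbol there. The symbols were also the same for all 19853 measured genes matched in RefSeq, so this is no trait of the 55. Of the 55, 37 were annotated as protein-coding, 15 as lncRNA and 3 as transcribed pseudogenes. Among the 655 matched Rik genes below the threshold the corresponding counts were 310, 300 and 26. None of the 55 was on chromosome X, against 35 of the 655 matched Rik genes below the threshold and 739 of 19853 measured genes with a position. Of the 713 genes without a Rik symbol that met the same threshold, 3 were on chromosome X (0.421%).

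Over all genes, 3.86% had a difference of at least 1 between 16 and 8 days, and 56 of the 741 Rik genes (7.56%) did. In the 56 genes the difference had a median of 2.10 and lay between 1.02 and 5.71. It was at least 2 in 30 of them and at least 3 in 13. In all 56 the arrays of 16 days lay above all arrays of 8 days, which follows in large part from the choice. Over all 19935 genes this order did not hold for 16998. It did not hold for 6 of the 713 genes without a Rik symbol that met the same threshold. The values just inside the threshold were 1.13 for 2700049A03Rik, 1.05 for 4933412E24Rik, 1.05 for 1700012P22Rik and 1.02 for 9530077C05Rik. Just outside were 1700029J07Rik at 1.00, below the threshold before rounding, 4930474M22Rik at 0.99, 2610301B20Rik at 0.97 and 4930590J08Rik at 0.94.

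**Figure D1:**
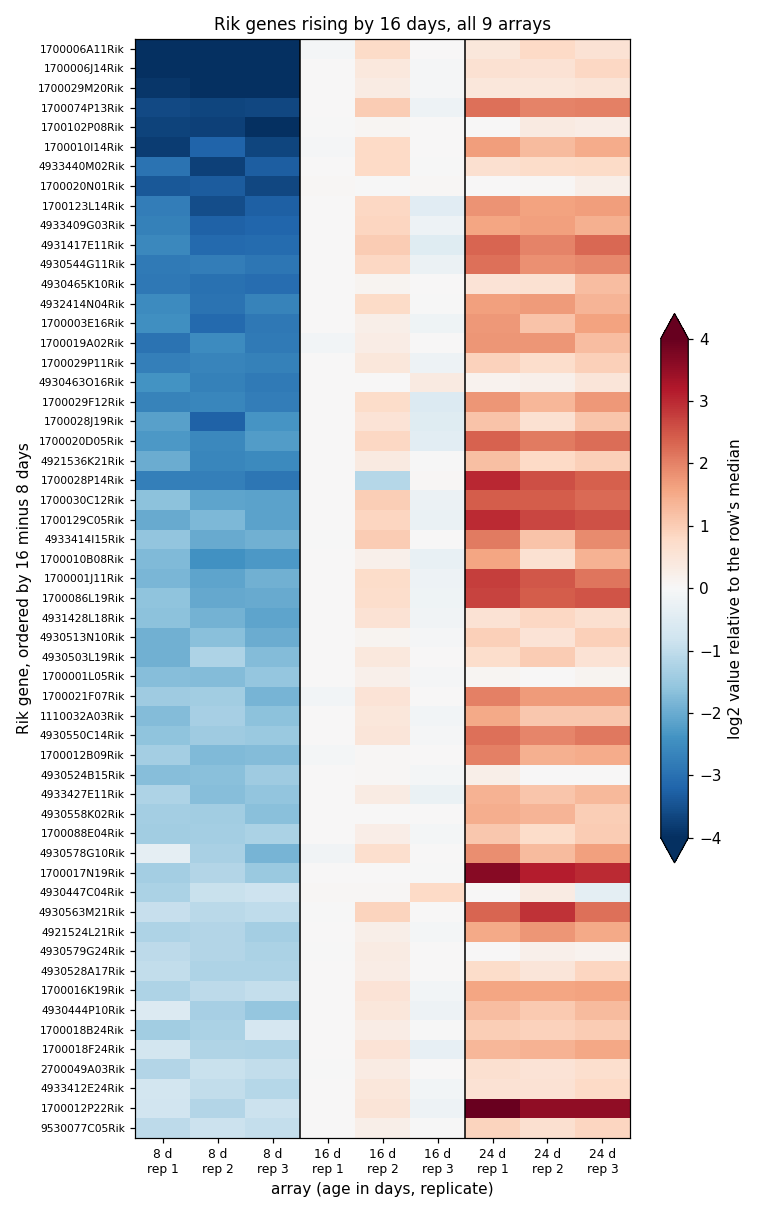
Values of the 56 Rik genes (down the page, ordered by their difference between 16 and 8 days) on each of the 9 arrays (across), as log2 values relative to the row's median, with colours ending at 4 and -4. All genes are lowest at 8 days, replicate 2 of 16 days is the highest 16-day array for 50 of the 56, and the 24-day arrays range from -0.40 to 3.94.

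The gene with the largest early difference was 1700006A11Rik (gene ID 71824, chromosome 3), annotated as protein-coding. Its values were -5.48, -5.61 and -5.34 at 8 days, -0.07, 0.78 and 0.00 at 16 days, and 0.45, 0.80 and 0.57 at 24 days, in replicates 1, 2 and 3. The 16-day mean was thus 52.4-fold above that of 8 days. The arrays of 24 and 16 days overlapped, and their difference of 0.37 ± 0.20 (limma's standard error, 3 arrays per age) had an adjusted p of 0.172. Without replicate 2 of 16 days the difference was 0.64, with an adjusted p of 0.00384.

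The lncRNA 1700006J14Rik (gene ID 321010, chromosome 10) came next. It had values of -4.0, -4.17 and -4.13 at 8 days, 0.00, 0.41 and -0.04 at 16 days, and 0.62, 0.58 and 0.82 at 24 days. All arrays of 24 days were above those of 16 days, by 0.55 ± 0.13 on the log2 scale (limma adjusted p 0.0101). The lncRNA 1700029M20Rik (gene ID 73937, chromosome 4) was 18.5-fold higher at 16 than at 8 days. Its values at 24 days were 0.46, 0.44 and 0.53, against 0.00, 0.33 and -0.06 at 16 days, a rise of 0.39 ± 0.13 (limma adjusted p 0.0433). Its call was lost without any single array of 24 days, without replicate 1 or 3 of 16 days and without replicate 3 of 8 days, with adjusted p up to 0.14.

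Of the 10 genes with the largest early difference, 4 did not pass the later test. Besides 1700006A11Rik these were the protein-coding 1700102P08Rik (gene ID 112418, chromosome 9) and the lncRNAs 4933440M02Rik (chromosome 7) and 1700020N01Rik (chromosome 10). 1700102P08Rik had values of -3.69, -3.74 and -4.06 at 8 days, -0.009, 0.07 and 0.00 at 16 days, and 0.01, 0.37 and 0.31 at 24 days. It was 14.4-fold higher at 16 than at 8 days, and its later difference was 0.21 ± 0.12 (limma adjusted p 0.205). 1700020N01Rik had values of -3.40, -3.33 and -3.64 at 8 days, 0.05, -0.03 and 0.05 at 16 days, and 0.00, 0.06 and 0.24 at 24 days. Its 24-day and 16-day arrays overlapped, with a difference of 0.08 ± 0.10 (limma adjusted p 0.571). For 4933440M02Rik the later difference was 0.44 ± 0.24 (limma adjusted p 0.166), and 0.72 without replicate 2 of 16 days (adjusted p 0.0161).

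The other 4 of the 10 rose further. 1700074P13Rik (gene ID 73481, chromosome 6), for which RefSeq also lists the name Tryx5, had values of -3.62, -3.67 and -3.65 at 8 days, 0.00, 1.02 and -0.19 at 16 days, and 2.21, 1.97 and 2.02 at 24 days. The ages did not overlap, and the later rise was 1.79 ± 0.25 (limma adjusted p 8.47e-04). 1700010I14Rik (gene ID 66931, chromosome 17) rose by 1.22 ± 0.23, and 4933409G03Rik (gene ID 227998, chromosome 2) by 1.33 ± 0.25. 4933409G03Rik lies next to another gene of the group, 4932414N04Rik, whose differences were 1.31 for 24 minus 16 days and 2.96 for 16 minus 8 days. 1700123L14Rik (gene ID 78482, chromosome 6) is annotated as a transcribed pseudogene with the synonym Nup50, the name of a nuclear pore protein, and rose by 1.56 ± 0.29. The gene Nup50 itself, on chromosome 15, had differences of 0.53 ± 0.11 for 24 minus 16 days (limma adjusted p 0.00528) and of 0.10 for 16 minus 8 days. Whether the pseudogene's row also reads transcripts of Nup50 was not tested.

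**Figure D2:**
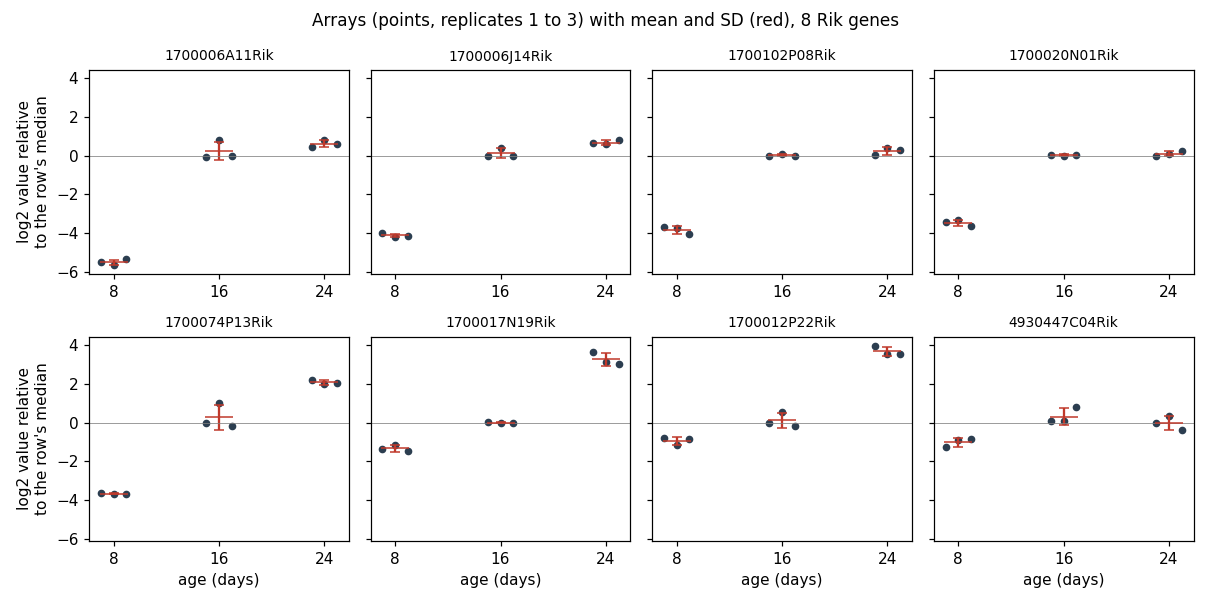
Log2 values relative to the row's median (vertical axis) at 8, 16 and 24 days (horizontal axis) for 8 of the Rik genes, with each array as a point, replicates 1 to 3 from left to right, and the mean and SD in red. 1700006A11Rik climbs mostly before 16 days, 1700012P22Rik and 1700017N19Rik climb mostly after, and the 24-day arrays of 4930447C04Rik overlap its 16-day arrays.

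Between 16 and 24 days the group as a whole continued to climb. By limma, fitted on all 19935 genes with Benjamini-Hochberg adjustment and a threshold of 0.05, 46 of the 56 genes rose and 0 fell. Over all genes, 13.2% rose and 20.1% fell. At an unadjusted p under 0.05, 47 of the 56 rose and 0 fell, and the share of all genes at that threshold was not counted. The median difference was 1.23, against -0.16 over all genes, and called rises lay between 0.39 and 3.56, or 1.31-fold and 11.8-fold. In 46 genes all arrays of 24 days lay above all arrays of 16 days, as they did in 16.5% of all genes, in 10 the ages overlapped, and in 0 the order was the other way round, as in 39.1% of all genes. Without the 2 arrays with raised olfactory receptor values, 51 Rik genes met the rule, 50 of them among the 56. Without them 49 of the 56 rose, with a median of 1.37, and over all genes 2943 rose and 5755 fell. With each array centred on its median over all genes 47 rose, while over all genes 2861 rose and 1927 fell, against 2641 and 4004 without centring.

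The 16-day arrays served both to choose the genes and in this comparison, so a 16-day mean that reads high by error favours inclusion and lowers the later difference. When genes were chosen on only 2 of the 16-day arrays and 24 days was set against the array left out, the median difference was 1.26 with replicate 1 left out of the choice and 1.48 with replicate 3. It was 0.71 with replicate 2, and there 47 of 52 chosen genes were above that array. Replicate 2 of 16 days was the highest 16-day array in 50 of the 56 genes (89.3%), in 90.9% of the 713 other genes over the same threshold and in 49.8% of all genes. The median over the 56 genes was 0.00, 0.44 and -0.05 in replicates 1, 2 and 3 of 16 days. On the same arrays the pachytene list had medians of 0.00, 0.31 and -0.08, and the spermatid list of -0.17, 0.00 and -0.29.

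**Figure D3:**
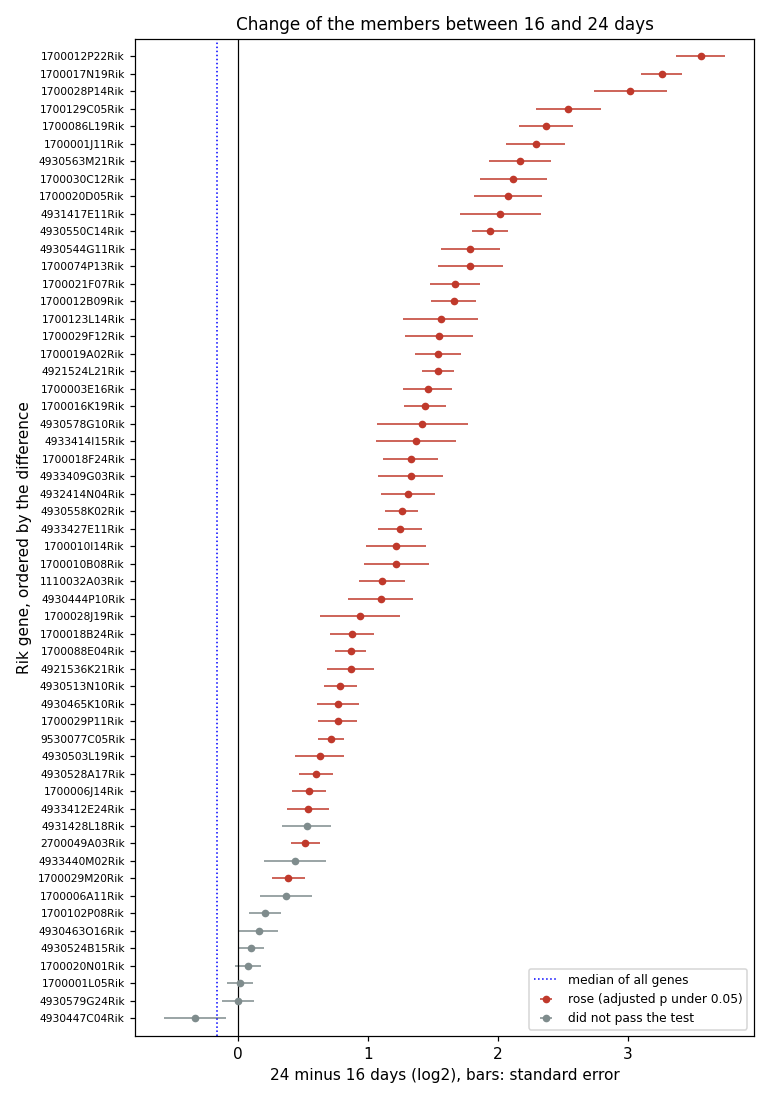
Difference between 24 and 16 days on the log2 scale (horizontal axis) for each of the 56 Rik genes, with limma's standard error as bars. The 46 genes in red rose at an adjusted p under 0.05, the 10 in grey did not pass the test, and the dotted line is the median of all genes at -0.16.

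The largest later rise was that of 1700012P22Rik (gene ID 69364, chromosome 4), a protein-coding gene that only just met the threshold at 16 days. Its values were 3.94, 3.54 and 3.54 at 24 days, against 0.00, 0.53 and -0.20 at 16 days, an 11.8-fold rise (3.56 ± 0.19, limma adjusted p 1.62e-06). The 24-day arrays stood far above every 16-day array. 1700017N19Rik (gene ID 66605, chromosome 10) had values of 3.64, 3.13 and 2.99 at 24 days, against 0.01, 0.00 and -0.01 at 16 days. It rose 9.55-fold (3.26 ± 0.16, limma adjusted p 9.40e-07), again without overlap.

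1700028P14Rik (gene ID 67483, chromosome 19) had values of 3.0, 2.58 and 2.40 at 24 days, against 0.00, -1.13 and 0.04 at 16 days. It rose by 3.02 ± 0.28 (limma adjusted p 5.83e-05). Replicate 2 of 16 days, the highest 16-day array for most of these genes, was its lowest. The remaining 5 of the 8 largest rises were 2.54 ± 0.25 for 1700129C05Rik, 2.37 ± 0.21 for the lncRNA 1700086L19Rik, 2.29 ± 0.23 for the transcribed pseudogene 1700001J11Rik, 2.17 ± 0.24 for 4930563M21Rik and 2.12 ± 0.26 for the lncRNA 1700030C12Rik. Their limma adjusted p lay between 4.79e-05 and 4.04e-04, and in each the arrays of the 2 ages were apart.

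In 13 of the 56 genes the later difference was larger than the earlier one. The same held for 84 of the 713 other genes over the same threshold and for 7182 of all 19935 genes. The ratio of the later to the earlier difference was highest in 1700012P22Rik (3.40), 1700017N19Rik (2.44), 4930563M21Rik (1.68) and 1700028P14Rik (1.25). Of the 17 genes with an early difference under 1.5, 15 rose later and 7 had the larger difference in the later interval. Of the 21 genes with an early difference of at least 2.5, 16 rose later and 0 had the larger difference there. These intervals share the 16-day arrays, so the counts are given side by side and not as a relation.

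The 10 genes that did not pass the later test were 5 protein-coding genes and 5 lncRNAs, with later differences from -0.33 to 0.53. The smallest in size were those of 4930579G24Rik (0.002 ± 0.12, limma adjusted p 0.991), the lncRNA 1700001L05Rik (0.02 ± 0.10, adjusted p 0.864), 1700020N01Rik and 4930524B15Rik (0.10 ± 0.10, adjusted p 0.464). 4930579G24Rik had values of 0.00, 0.21 and 0.13 at 24 days, against -0.009, 0.34 and 0.01 at 16 days. The lncRNA 4931428L18Rik lay just outside the threshold (0.53 ± 0.19, limma adjusted p 0.0504) and passed without replicate 2 of 16 days (0.75, adjusted p 0.00339) or without replicate 1 of 8 days (adjusted p 0.0438), and also with centred arrays (adjusted p 0.0288) or array weights (adjusted p 0.00999). A p above the threshold does not show that the values of the 2 ages were equal.

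The gene with a mean below that of 16 days at 24 days, named here after its values were seen, was 4930447C04Rik (gene ID 75801, chromosome 12). RefSeq lists it also as Six6os1, in mice a protein of the central element of the synaptonemal complex, which holds paired chromosomes together in meiosis. Its values were 0.00, 0.33 and -0.40 at 24 days, against 0.06, 0.06 and 0.79 at 16 days and -1.28, -0.90 and -0.84 at 8 days. The difference of -0.33 ± 0.24 between 24 and 16 days did not pass limma's test (adjusted p 0.287), and it ranged from -0.50 to -0.08 when 1 array was left out, the smallest in size without replicate 3 of 16 days, and was 0.11 on the 6 numbered arrays alone. Other synaptonemal complex genes, taken from the pachytene list, had later differences of -0.23 ± 0.15 for Sycp1 and 0.03 ± 0.20 for Sycp3, with adjusted p of 0.257 and 0.924.

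A second member with an established protein product was 2700049A03Rik (gene ID 76967, chromosome 12), listed also as Talpid3, a centrosomal protein that cells need to build cilia. Its values were 0.64, 0.55 and 0.67 at 24 days, against -0.01, 0.33 and 0.00 at 16 days and -1.17, -0.90 and -1.0 at 8 days. It rose by 0.52 ± 0.11 in the later interval (limma adjusted p 0.00801). 1700016K19Rik (chromosome 11), listed also as Liat1, a binding partner of the arginyltransferase Ate1, rose by 1.44 ± 0.16. Its values of 1.58, 1.59 and 1.6 at 24 days were clear of the 0.00, 0.56 and -0.12 at 16 days. In all, 22 of the 56 had another name or clone number in RefSeq.

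By annotation, 32 of 37 protein-coding genes, 10 of 15 lncRNAs and 3 of 3 transcribed pseudogenes rose in the later interval. The median later difference was 1.33 in the protein-coding genes and 0.60 in the lncRNAs, and their medians for 16 minus 8 days were 1.70 and 2.21. The difference between these classes was not tested. 4930578G10Rik, which had no RefSeq entry by its gene ID, had the widest spread at 8 days, with values of -0.35, -1.31 and -1.87. It rose by 1.42 ± 0.35 in the later interval (limma adjusted p 0.0129), a call that was lost without replicate 1 of 16 days or replicate 1 of 24 days, with adjusted p up to 0.0549.

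At 24 days 55 of the 56 genes were still at least 1 above their 8-day mean, the exception being 4930447C04Rik at 0.98, and 9.73% of all genes were. The median difference between 24 and 8 days was 3.54, and the largest was 6.09, or 67.9-fold, for 1700006A11Rik. No 24-day array of any of the 56 was at or below an 8-day array of the same gene. At least 1 was in 15849 of all 19935 genes, and in 9 of the 713 other genes over the same threshold. In 55 genes the mean was highest at 24 days, as in 4946 of all genes and 663 of the 713 others. The choice favours low 8-day values, so these counts are a description. The spread between arrays of an age, as the median SD over the 56 genes, was 0.21 at 8 days, 0.32 at 16 days and 0.18 at 24 days, against 0.15, 0.13 and 0.10 over all genes.

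The Rik genes had a median difference of 1.23 between 24 and 16 days, against 0.91 in the 713 genes without a Rik symbol that met the same threshold. In the Rik genes 82.1% rose and 0 fell, and of the 713 others 553 rose (77.6%) and 4 fell. The difference between these groups was not tested. A later difference of at least 1 was found in 32 of the 56 Rik genes (57.1%) and 43.3% of the 713 others, and in 5.38% of all genes. Another 98 Rik genes, below the threshold at 16 days, had a later difference of at least 1.

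**Figure D4:**
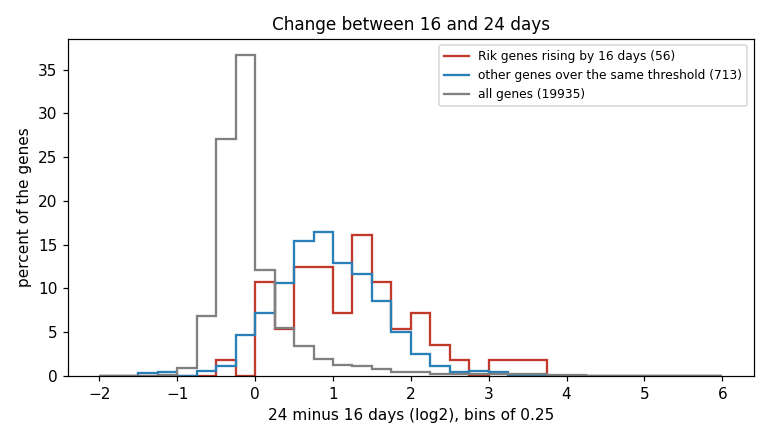
Distribution of the difference between 24 and 16 days (horizontal axis, log2, bins of 0.25) as percent of the genes (vertical axis), for the 56 Rik genes, the 713 other genes over the same threshold and all 19935 genes. The first 2 distributions lie to the right of that of all genes, with medians of 1.23 and 0.91 against -0.16.

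RefSeq promoters (GRCm38.p6, from 250 bases before to 50 after the gene's start) were on hand for 45 of the 56, and the first was used for 3 genes with several. Letters searched on both strands were CAACNG, a core recognised by MYB proteins, TGACG, a part of the cAMP response element (CRE), the whole CRE, which is TGACG with TCA after it, and GTTGCC, a part of the X-box bound by RFX factors. CAACNG and GTTGCC, which reads GGCAAC on the other strand, can share the letters CAAC. Mybl1 encodes A-MYB, a regulator of pachytene genes in mice. It had differences of 0.21 ± 0.23 for 24 minus 16 days (limma adjusted p 0.457) and of 2.18 for 16 minus 8 days.

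CAACNG occurred in 29 of the 45 promoters (64.4%). It occurred in 36.2% of 520 promoters of Rik genes below the threshold, 54.4% of 575 promoters of the other genes over the threshold, 33.4% of 15561 promoters of measured genes and 35.1% of all 27025 genes in the table. Within 50 bases of the start, a window chosen after the values were seen, it occurred in 22 of the 45 promoters (48.9%), against 17.3%, 33.4% and 13.7% in the first 3 of these groups. In the 72 promoters of the Rik genes that climbed later the share was 25% in this window. Over the whole promoter it was 48.6% in these 72 (35 promoters). At least 2 matches were present in 11 of the 45 promoters (24.4%), against 20% of those of the other genes over the threshold and 7.41% of those of measured genes. The median G+C content was 51.3% in the 45, against 53.7% in Rik genes below the threshold, 57.3% in the other genes over it, 57.7% in measured genes and 52.7% in the whole table.

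GTTGCC occurred in 10 of the 45 promoters (22.2%), against 23.3% of those of the other genes over the threshold, 13.8% of those of Rik genes below it, 12.3% of those of measured genes and 12.7% of the whole table. It overlapped the MYB core in 6 of the 45 (13.3%), against 11.7% for the other genes over the threshold, 4.81% for Rik genes below it and 4.61% for measured genes. The letters TGACG occurred in 22.2%, against 27.8% of the other genes over the threshold, 22.3% of Rik genes below it, 25.4% of measured genes and 21% of the table. The whole CRE occurred in 0 of the 45, against 2.61% of the other genes over the threshold, 2.69% of Rik genes below it, 2.5% of measured genes and 1.88% of the table. These shares are descriptions without a test, and a match is not a bound site.

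**Figure D5:**
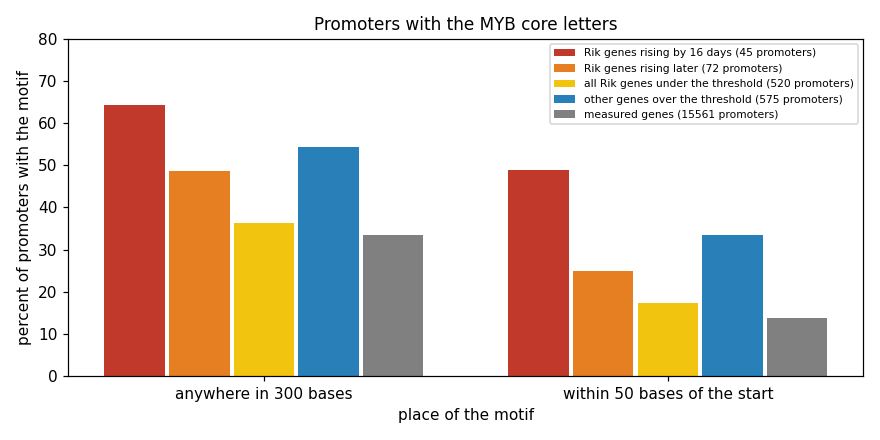
Percent of RefSeq promoters (vertical axis, from 0) that hold the MYB core letters anywhere in 300 bases (left) or within 50 bases of the start (right), for the Rik genes rising by 16 days, the Rik genes rising later, all Rik genes under the threshold, which include the later ones, the other genes over the threshold and all measured genes. The share is 64.4% and 48.9% in the first group, against 33.4% and 13.7% in measured genes.

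Shown here are 4 of these promoters, 3 with several matches and that of the gene with the largest early difference among genes with a promoter on hand, each 5′ to 3′ on the gene's strand with CAACNG or its reverse complement in capitals.
1700010I14Rik: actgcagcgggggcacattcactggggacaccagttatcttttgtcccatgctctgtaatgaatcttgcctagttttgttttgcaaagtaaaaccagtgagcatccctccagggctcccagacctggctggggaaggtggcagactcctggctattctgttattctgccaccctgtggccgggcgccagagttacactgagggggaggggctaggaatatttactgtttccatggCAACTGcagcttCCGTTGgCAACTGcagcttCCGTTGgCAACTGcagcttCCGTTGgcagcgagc
1700102P08Rik: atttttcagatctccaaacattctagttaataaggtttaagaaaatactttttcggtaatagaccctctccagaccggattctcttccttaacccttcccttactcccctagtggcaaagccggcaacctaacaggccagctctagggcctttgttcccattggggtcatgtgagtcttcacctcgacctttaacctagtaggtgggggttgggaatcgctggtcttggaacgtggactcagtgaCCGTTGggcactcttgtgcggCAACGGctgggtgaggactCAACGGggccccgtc
1700006J14Rik: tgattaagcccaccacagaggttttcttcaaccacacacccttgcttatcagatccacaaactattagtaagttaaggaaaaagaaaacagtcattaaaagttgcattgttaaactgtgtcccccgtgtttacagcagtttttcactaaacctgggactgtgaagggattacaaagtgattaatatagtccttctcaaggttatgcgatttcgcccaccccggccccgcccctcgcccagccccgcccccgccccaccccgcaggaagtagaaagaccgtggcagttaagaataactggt
1700012P22Rik: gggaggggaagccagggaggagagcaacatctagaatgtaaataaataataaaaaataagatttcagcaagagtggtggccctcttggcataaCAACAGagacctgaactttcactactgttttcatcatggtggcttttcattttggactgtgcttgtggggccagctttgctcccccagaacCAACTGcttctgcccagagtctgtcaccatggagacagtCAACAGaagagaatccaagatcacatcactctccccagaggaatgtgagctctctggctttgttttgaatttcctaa
In GRCm38.p6 these lie at chr17:8988083-8988382, chr9:108392584-108392883 and chr10:120363884-120364183 on the plus strand and, for 1700012P22Rik, at chr4:144438723-144439022 on the minus strand. The promoter of 1700010I14Rik holds 6 matches, at -15, -3, 5, 17, 24 and 36 relative to the start, which form 3 copies of a run of 18 bases, and 3 GTTGCC matches overlap them. That of 1700102P08Rik holds 3 matches, at -5, 17 and 36, and GTTGCC matches at -128 and 15. That of 1700012P22Rik holds 3 matches farther upstream, at -157, -66 and -27, and that of the lncRNA 1700006J14Rik holds none of the 4 sets of letters.

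By position, 16 of the 55 genes with a RefSeq entry overlapped the nearest measured gene on either side, and for these the deposited files do not say which strand the array read. Of 108 neighbouring measured genes outside the group, 6 (5.56%) had a difference of at least 1 between 16 and 8 days, near the 3.86% of all genes. Stard6 on chromosome 18, named after its values were seen, overlaps 4930503L19Rik and had differences of 1.32 for 24 minus 16 days and 3.83 for 16 minus 8 days. 4930503L19Rik had differences of 0.63 and 1.77, and its later call was lost without replicate 1 or 3 of 16 days or replicate 1 or 2 of 24 days, with adjusted p up to 0.10.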

How the data were processed

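The deposited values were log2 values that, judged from the values themselves, the authors had centred so that a row's median array is at 0. The base of the logarithm is inferred from their range (-6.07 to 6.05), and background correction and normalization are not given in the sources used here. With the 38964 empty cells set to 0 each of the 28815 rows had a median of 0, so empty cells were taken as 0. Rows with exactly 1 symbol (21780) in the probe annotation of 2016 were averaged per gene, giving 19935 genes. Members and lists were chosen with earlier results of these data known.

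Genes were fitted with limma 3.58.1 in R 4.3.3 (3 age means estimated from 9 arrays, with 3.82 prior and 6 residual degrees of freedom; 2-sided tests, Benjamini-Hochberg over all genes). The test was checked on simulated data with noise drawn independently for each gene and array. Shifts of a whole array were not simulated, so the check does not cover them. A change is given with limma's standard error and a mean with its SD. The number of arrays limits the precision.

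Named genes were the 10 largest early differences, the 8 largest called later rises and falls, those next to the threshold, and the highest ratios and smallest later changes. Genes with another symbol in RefSeq were also to be named, but there were 0, as among all measured genes matched there. 4932414N04Rik, 1700016K19Rik, 4931428L18Rik and 4930578G10Rik were named after their values were seen. The titles do not state a pairing, and their numbers were not taken as one. Alternatives covered scaling, rows, empty cells, array weights, the arrays fitted, robust eBayes, a 2-fold minimum, a replicate block and single arrays left out, and 2 more were added after seeing the data.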

Additional observations from a re-analysis of the deposited data

How the results depend on the processing

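All alternatives kept 0 members fallen. The number of members ranged from 52 to 62 when 1 array was left out. It was 39 at a threshold of 1.5 and 104 at 0.5, which is a wider choice by construction. The 46 rises ranged from 41 to 49 with 1 array left out. They numbered 39 with empty cells left missing and 32 with the 2-fold minimum. Of the 46, 25 were called under each of 17 settings. 4930558K02Rik was called under the 16 that gave it a value, and had none with empty cells left missing. Its 16-day values were all 0.00, from empty cells taken as 0. Its inclusion, its later rise and those 16 calls therefore rest on that filling. The median later change of 1.23 ranged from 1.10 to 1.37 without 1 array, and was 0.71 for genes chosen without replicate 2 of 16 days and compared with it. Over all genes, rises ranged from 1997 to 2874 and falls from 1674 to 5196 with 1 array left out. They were 2943 and 5755 without both arrays with raised olfactory receptor values. Falls were 1674 without replicate 1 of 16 days, 2616 without replicate 3 of 16 days and 1764 without replicate 1 of 24 days. All-gene falls were 1927 with centred arrays and 2415 with empty cells left missing, and the cause was not tested. With a 2-fold minimum 1072 genes rose and 29 fell. With the replicate block on the 6 numbered arrays, which uses fewer arrays, 26 members rose (median change 1.08), and over all genes 1198 rose and 96 fell. Same-numbered arrays had correlations of -0.46 to 0.20 in their deviations from the age means. Between replicate 1 of 8 days and replicate 2 of 16 days the correlation was 0.6. Shifts of whole arrays enter these values, so they cannot show whether arrays were paired, and the numbers were not taken as a pairing. A few changes near 0 that passed no test turned sign. With the block they were -0.06 for 4930579G24Rik, -0.05 for 1700001L05Rik and 0.11 for 4930447C04Rik. Without 1 array 4930579G24Rik ranged from -0.06 to 0.11 and 1700001L05Rik from -0.03 to 0.10, and with empty cells left missing 1700001L05Rik was at -0.00. The change of 4930463O16Rik, 0.16 in the main fit, also turned sign with empty cells left missing. Centring the arrays raised the differences between 24 and 8 days by a median of 0.12 over all genes. Array weights stopped before converging.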

Other observations

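The 98 Rik genes that stayed under the threshold at 16 days and climbed by at least 1 afterwards, by a median of 2.05, had a median difference of 0.10 between 16 and 8 days, and 88 of them carry a testis library code. The largest later differences were 4.28 ± 0.15 for 1700019D03Rik, 4.18 ± 0.30 for 1700009N14Rik and 3.79 ± 0.26 for 1700034E13Rik (standard errors, 3 arrays per age, limma adjusted p 2.76e-07, 9.65e-06 and 7.15e-06). In 1700019D03Rik the means were -0.10 ± 0.22, -0.17 ± 0.16 and 4.11 ± 0.22 at 8, 16 and 24 days (SD, n = 3).

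Another 269 rows carry several symbols with at least 1 ending in Rik and were not used, since they cannot be assigned to a gene. Of these, 25 (9.29%) had a difference of at least 1 between 16 and 8 days, and all 25 were higher at 24 than at 16 days, by a median of 1.41.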
